A study of Homo sapiens with 12 samples.

Results

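The 10 genes described here control entry into the cell cycle from G1: the D-type cyclins CCND2 and CCND3, the kinases CDK4 and CDK6, the inhibitors CDKN2A, CDKN2B, CDKN2C, CDKN2D and CDKN1B, and RB1, the protein that the kinases act on. They were chosen by name, through the Ensembl identifiers that carry these symbols, and are 10 of the 60664 genes in the count table. All 10 were among the 17349 genes that had enough reads to be tested. CCND2, CDKN2A and CDKN2B passed that filter through the TOM-1 libraries alone.

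RNA was sequenced from a pair of human B-cell acute lymphoblastic leukaemia lines, each in control culture and with 1000 ng/ml ADI-PEG20. The labels give 24 h for control and treated libraries alike. TOM-1 carries the Philadelphia chromosome, whereas RS4;11 has a KMT2A rearrangement in its place. The agent ADI-PEG20, arginine deiminase joined to polyethylene glycol, converts the arginine of the culture medium into citrulline. The series' title asks about a weakness of Philadelphia-positive leukaemia tied to the arginine-making enzyme ASS1. That makes 4 groups, a control and a treated one for either line, each of 3 libraries. Both lines are labelled as lymphoblasts of wild-type genotype from blood, and both grew in RPMI medium with fetal bovine serum and antibiotics. Each line stands for 1 patient's leukaemia, so a difference between the lines is a difference between these 2 cultures. The labels do not say whether the 3 libraries of a group came from separate cultures, so p-values measure the spread between these samples, which may be technical.

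D-type cyclins bind CDK4 or CDK6, and the active kinases phosphorylate the RB1 protein, which then lets go of E2F transcription factors so that genes of S phase are transcribed. The INK4 inhibitors, encoded by CDKN2A to CDKN2D, bind CDK4 and CDK6 and keep the cyclin away, while p27, encoded by CDKN1B, mainly holds back the cyclin E and cyclin A complexes of CDK2. In B-cell precursors CCND2, CCND3 and CDK6 are used more than CCND1, and the part of chromosome 9 that holds CDKN2A and CDKN2B is often lost in lymphoblastic leukaemia.

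One library stood apart. Reads of TOM-1 control replicate 3 fell on 14963 genes, where the other 11 libraries reached 19857 to 21997, and ribosomal protein genes took 17.8% of its counts against 5.33% to 8.95%. Total counts ran from 18958144 to 35956959 over all libraries and were 22206152 in that one. Its part in the results below was tested only by leaving it out, and most fold changes it enters are given with and without it. The change of TSPAN31 and the ratio of CCND2 between the control cultures are given with it only. The B-lymphoblast markers CD79A, CD79B, PAX5, EBF1, DNTT, VPREB1, IGLL1 and RAG1 had reads in all 12 libraries. HOXA9 and MEIS1, which KMT2A rearrangement switches on, had 0 counts in the 6 TOM-1 libraries and at least 1424 counts in each RS4;11 library. Of the 8 markers of T, myeloid and erythroid cells, the myeloid gene MPO was the exception to low counts, with 249 to 493 counts in the TOM-1 libraries; the other 7 had at most 26 counts in any library.

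The promoters of the kinase CDK4 and the inhibitor CDKN2C are printed because these were the members that fell with ADI-PEG20 in TOM-1 and because both hold the E-box, the palindrome CACGTG that MYC and related factors bind. They were picked after the values had been seen. RefSeq's table for GRCh38.p14 gave promoters, 250 bases before to 50 after a start, for 9 of the 10 members. Capitals mark the E-box, which reads the same on both strands. Each sequence runs 5′ to 3′ on the gene's own strand. CDK4 is on the minus strand at chr12:57752261-57752560, and the starts of CDKN2C shown are on the plus strand at chr1:50960495-50960794 and chr1:50969995-50970294.
CDK4: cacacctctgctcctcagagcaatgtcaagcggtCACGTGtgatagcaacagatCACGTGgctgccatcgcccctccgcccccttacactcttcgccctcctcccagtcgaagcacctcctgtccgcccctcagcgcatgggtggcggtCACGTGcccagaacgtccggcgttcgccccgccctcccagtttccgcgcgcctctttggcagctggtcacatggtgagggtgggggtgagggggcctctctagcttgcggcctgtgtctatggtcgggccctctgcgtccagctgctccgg
CDKN2C, upstream start: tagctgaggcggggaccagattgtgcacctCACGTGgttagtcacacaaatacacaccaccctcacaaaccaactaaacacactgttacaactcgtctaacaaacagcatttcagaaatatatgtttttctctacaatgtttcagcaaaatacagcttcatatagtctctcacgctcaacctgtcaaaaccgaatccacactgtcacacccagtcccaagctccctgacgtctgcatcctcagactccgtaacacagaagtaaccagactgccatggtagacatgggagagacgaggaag
CDKN2C, downstream start: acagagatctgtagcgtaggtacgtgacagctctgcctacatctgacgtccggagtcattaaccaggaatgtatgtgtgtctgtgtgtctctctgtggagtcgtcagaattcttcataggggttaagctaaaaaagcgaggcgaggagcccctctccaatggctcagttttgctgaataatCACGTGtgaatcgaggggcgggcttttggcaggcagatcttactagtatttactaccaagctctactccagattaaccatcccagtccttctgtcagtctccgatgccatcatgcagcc

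CDK4 held 3 E-boxes, whose first bases lay 216, 196 and 101 bases before the start. At CDKN2C the E-box lay 220 bases before the upstream start and 69 before the downstream start, and the third start of that gene held none. An E-box was found in 7.26% of the 35116 RefSeq promoters of this length, and at least 3 in 33 of them, or 0.094%. CDK6 was the only other member with one, 30 bases after 1 of its 2 starts. Other motifs were searched on both strands in the same windows. CCAAT was in promoters of CCND3, CDKN1B, CDKN2C and CDKN2D and in 34.6% of all promoters. For every motif, the E-box included, a member counted where any of its windows matched, and CCND3 and CDKN2C had 3 windows each. The shares of all promoters are per window, so the members' counts are not on the same footing. The forkhead motif GTAAACA was in a promoter of CCND3 and in 3.42% of all. The E2F forms TTTCCCGC and TTTGGCGC and the amino acid response motif TGATGCAA were in 0 of the windows of these 9 members and in 1.63%, 0.652% and 0.866% of all promoters. CCND2 had no window, and the 1 window of RB1 lay inside the gene and not at its annotated start, so the main start of RB1 was not searched. None of the searched motifs contains another, and a match is a description of these letters and no measurement of binding.

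**Figure D1:**
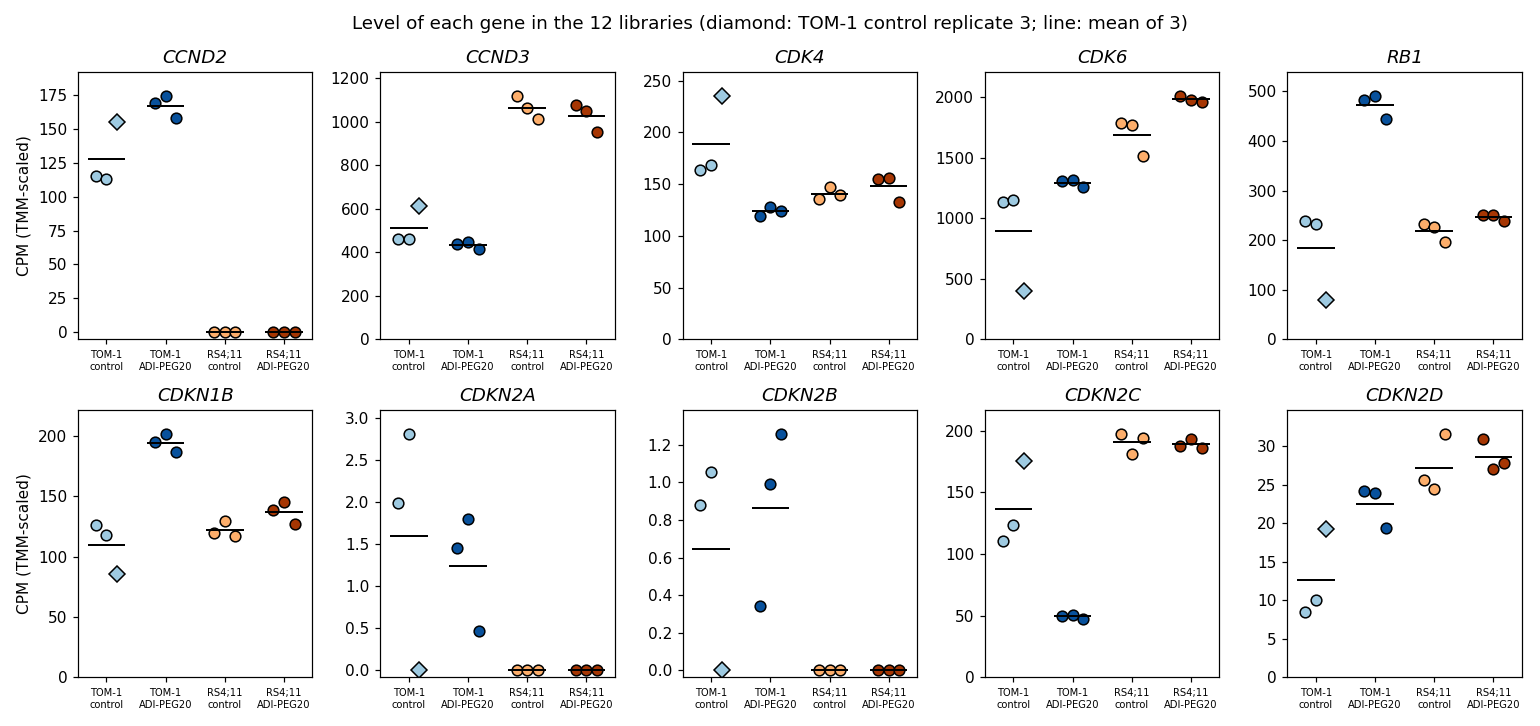
Level of each of the 10 genes in CPM (reads per 1000000 of the TMM-scaled library; linear axis, its own range in each panel) in every library of the 4 groups, with a line at the mean of 3 libraries and a diamond for TOM-1 control replicate 3. CDKN2C falls from 111 to 175 CPM in TOM-1 control to 47.8 to 50.7 with ADI-PEG20, while CCND2, CDKN2A and CDKN2B are at or near 0 in RS4;11.

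Levels are given as CPM, the reads of a gene per 1000000 of the library's TMM-scaled total, with the 3 replicates in order. A gene was called changed where edgeR's quasi-likelihood test, adjusted by Benjamini-Hochberg over all tested genes, gave a p under 0.05. By that rule ADI-PEG20 changed 5 of the 10 members in TOM-1, where 31.9% of all tested genes were called. CDKN1B, CDKN2D and RB1, 3 of 10, were higher and CDK4 and CDKN2C, 2 of 10, were lower, where 15.9% of all genes were called in each direction. Leaving out TOM-1 control replicate 3, 7 of 10 were called against 41.6% of all genes, CCND2 and CDK6 being added as higher. For 8 of the 10 members all treated TOM-1 libraries lay on one side of all controls, which was so for 46.2% of all tested genes. In RS4;11 edgeR called 0 of the 7 members with reads in both lines and 0% of all genes. CCND2, CDKN2A and CDKN2B were at or near 0 counts in both RS4;11 groups and are left out of this count. Of the 7, 0 had an unadjusted edgeR p under 0.05, 325 of all genes did, and DESeq2 called 0 genes as well. When TOM-1 control replicate 3 was left out, 0.317% of all genes were called in RS4;11 and still 0 members, 3 of which, CDK6, CDKN1B and RB1, had an unadjusted edgeR p under 0.05. Libraries did not overlap in RS4;11 for 2 members, CDK6 and RB1, against 16.8% of all genes.

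The test of the difference itself, the change in TOM-1 minus the change in RS4;11, called CDK4 and CDKN2C. These are 2 of the 7 members with reads in both lines, against 11.9% of all genes. Both were lower and 0 members were higher, where 6.05% of all genes were lower and 5.89% higher. With TOM-1 control replicate 3 left out the test called 5 of the 7, CDK4, CDKN1B, CDKN2C, CDKN2D and RB1, against 30.4%. CCND2, CDKN2A and CDKN2B could be tested only because they are high in TOM-1, so their difference between the lines is described without a test, and calls between the lines are counted over the other 7 members. In control culture the lines differed for 5 of these 7, where 34.7% of all genes were called. The shares of all genes are over every tested gene, also those testable through TOM-1 alone such as CCND2, so they cover a wider set. CDK4 was higher in TOM-1 (16.2% of all genes) and CCND3, CDK6, CDKN2C and CDKN2D were lower (18.4%). With ADI-PEG20 in the medium they differed for 4 of the 7, against 47.2%, with CDKN1B and RB1 higher in TOM-1 (23.1% of all genes) and CCND3 and CDKN2C lower (24.0%). Leaving out TOM-1 control replicate 3 gave 5 of 7 against 52.8% in control culture and 7 of 7 against 62.9% with ADI-PEG20. The comparisons within TOM-1, between the control cultures and of the difference share the TOM-1 control libraries. In a bulk library, fewer cells with an RNA and less of it per cell cannot be told apart.

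CCND3, the D-type cyclin that early lymphoid cells need to expand, was the main D cyclin of both lines. CCND3 (ENSG00000112576, chr6:41934933-42050357, minus strand) stood at 463, 459 and 613 CPM in TOM-1 control and at 439, 446 and 412 CPM with ADI-PEG20. In RS4;11 it stood at 1116, 1062 and 1012 CPM in control and at 1076, 1048 and 954 CPM with the drug. Every RS4;11 library lay above every TOM-1 library, and within RS4;11 the groups overlapped. On the log2 scale CCND3 was lower in TOM-1 than in RS4;11 by edgeR in control culture, at -1.06 ± 0.13 (SE, adjusted p = 3.75e-05), and with ADI-PEG20, at -1.25 ± 0.13 (adjusted p = 7.14e-06). The fit without TOM-1 control replicate 3 gave -1.21 ± 0.06 (edgeR adjusted p = 4.94e-13) and -1.25 ± 0.06 (edgeR adjusted p = 1.3e-14). The CCND3 change with the drug in TOM-1 was -0.24 ± 0.12, with an edgeR adjusted p of 0.164 and an interval of -0.52 to 0.03. Without TOM-1 control replicate 3 that change was -0.10 ± 0.06 (edgeR adjusted p = 0.235).

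CCND2, the D-type cyclin that growth factor signals raise in B cells, was abundant in TOM-1 and at or near 0 counts in RS4;11. CCND2 (ENSG00000118971, chr12:4273772-4305350, plus strand) stood at 115, 113 and 155 CPM in TOM-1 control and at 169, 175 and 158 CPM with ADI-PEG20. The 6 RS4;11 libraries together held 12 counts of it: 5 in control and 7 with the drug, with 2 and 1 libraries at 0. Summed over libraries, TOM-1 had 9776 counts in control, a level ratio to RS4;11 of 1696 (95% counting interval 726 to 5224), and 12540 counts with the drug, a ratio of 1558 (756 to 3876). The TOM-1 groups did not overlap, though the highest control library, replicate 3, came close to the lowest treated one. The change of CCND2 in TOM-1 was 0.39 ± 0.31 in log2 units (edgeR adjusted p = 0.394) with all libraries and 0.54 ± 0.12 (edgeR adjusted p = 0.00069) without TOM-1 control replicate 3. CCND2 shares 13.8% of its exonic bases with AC008012.1, a transcript on the same strand, and reads of that stretch cannot be told apart.

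Per kilobase of exon, which allows genes to be compared, CCND2 made up 16.8% ± 0.2 (SD, n = 3) of the D cyclin level in TOM-1 control and 23.8% ± 0.2 with ADI-PEG20. The control share hardly moved in TOM-1 control replicate 3, at 17.0%. In RS4;11 CCND3 made up 99.97% ± 0.03 in control and 99.98% ± 0.03 with the drug. CCND1, the third D cyclin, stayed at 0.25% or 0.31% of the TOM-1 sum and at 0.02% and 0.01% in RS4;11. The summed D cyclin level was 106 ± 18.2 CPM per kilobase in TOM-1 control, 95.8 ± 0.668 without replicate 3, and 98.2 ± 4.2 with the drug, so which TOM-1 group was higher turned on that library. In RS4;11 the sum was 183 ± 8.94 in control and 177 ± 11.1 with the drug.

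**Figure D2:**
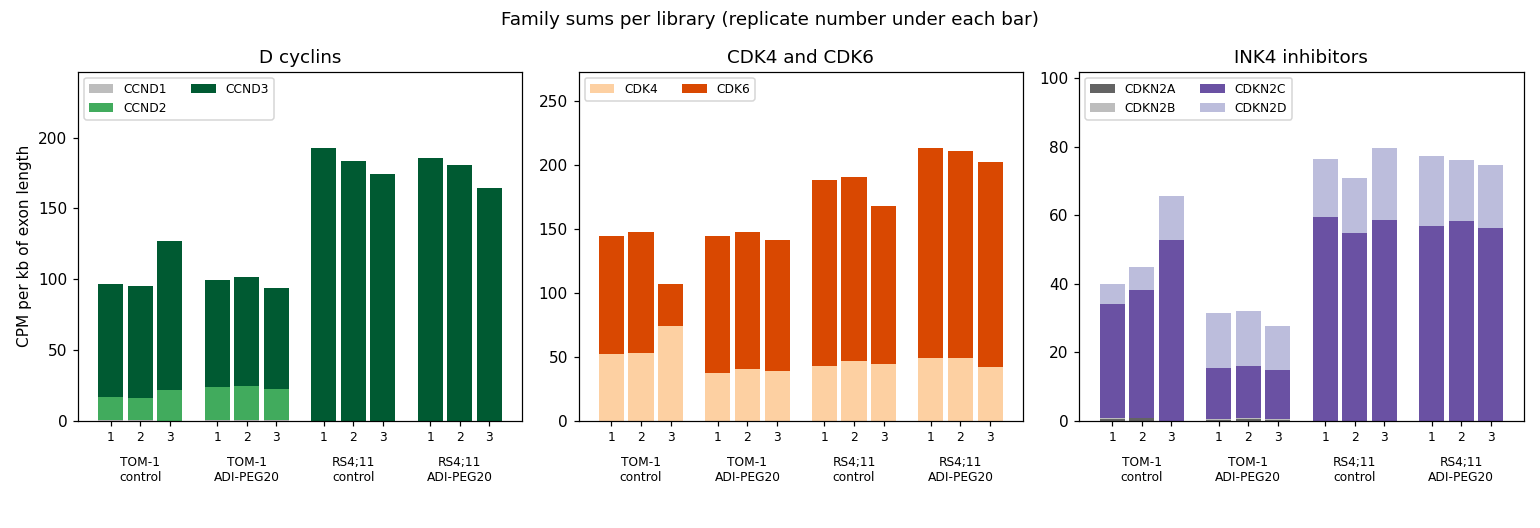
Summed level of the D cyclins, of CDK4 and CDK6 and of the INK4 inhibitors, as CPM per kilobase of exon length, with 1 stacked bar per library (replicate number under it) in the 4 groups. In TOM-1 the CDKN2C part of the INK4 bars shrinks with ADI-PEG20 while the CDKN2D part grows, and TOM-1 control replicate 3 has the smallest CDK6 part of all libraries.

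CDK4, which with CDK6 phosphorylates RB1, fell with ADI-PEG20 in TOM-1. CDK4 (ENSG00000135446, chr12:57747727-57756013, minus strand) stood at 164, 168 and 235 CPM in TOM-1 control and at 119, 128 and 124 CPM with ADI-PEG20. The RS4;11 levels were 135, 147 and 139 CPM in control and at 155, 155 and 133 CPM with the drug. All treated TOM-1 libraries lay below all TOM-1 controls, the highest of which was replicate 3, while the RS4;11 groups overlapped. The fall in TOM-1 was -0.61 ± 0.14 in log2 units (edgeR adjusted p = 0.00673), and -0.43 ± 0.07 (edgeR adjusted p = 5.37e-05) without that library. Fitted on the TOM-1 libraries only, it was -0.65 with an edgeR adjusted p of 0.0613. In RS4;11 the change was 0.07 ± 0.14, with an interval of -0.24 to 0.38. The spread behind that interval is estimated over all groups together, TOM-1 control replicate 3 included.

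The fall of CDK4 differed between the lines by -0.68 ± 0.20 in log2 units (edgeR adjusted p = 0.0474), and by -0.50 ± 0.10 (edgeR adjusted p = 0.00049) without TOM-1 control replicate 3. That first call was near the threshold. It did not hold without any one treated TOM-1 library, any RS4;11 control library or RS4;11 ADI-PEG20 replicate 1 or 2, with edgeR adjusted p from 0.0762 to 0.116 and differences from -0.67 to -0.76. In control culture CDK4 was 0.43 ± 0.14 higher in TOM-1 in log2 units (edgeR adjusted p = 0.0364), and 0.24 ± 0.07 (edgeR adjusted p = 0.0104) without TOM-1 control replicate 3. The call between the control cultures was lost without any 1 of the 9 treated or RS4;11 libraries, with edgeR adjusted p from 0.0505 to 0.137 and values from 0.38 to 0.44. CDK4 shares 43.2% of its exonic bases with TSPAN31 on the opposite strand, and whether reads were counted by strand is not given in the sources used here. TSPAN31 stood at a mean of 17.5 CPM in TOM-1 control and 20.2 CPM with the drug, a log2 change of 0.21 ± 0.17 (edgeR adjusted p = 0.406).

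CDK6, the partner kinase that lymphoid leukaemias lean on, was lower in TOM-1 than in RS4;11. CDK6 (ENSG00000105810, chr7:92604921-92836594, minus strand) stood at 1133, 1154 and 400 CPM in TOM-1 control and at 1307, 1314 and 1255 CPM with ADI-PEG20. The RS4;11 levels were 1784, 1768 and 1518 CPM in control and at 2009, 1980 and 1963 CPM with the drug. The low TOM-1 control was replicate 3, and treated libraries lay above controls in both lines without overlap. The change in TOM-1 was 0.53 ± 0.29 in log2 units (edgeR adjusted p = 0.192) with all libraries and 0.17 ± 0.06 (edgeR adjusted p = 0.0234) without replicate 3. In RS4;11 it was 0.23 ± 0.29 (edgeR adjusted p = 1) and, without TOM-1 control replicate 3, 0.23 ± 0.05 (edgeR adjusted p = 0.06).

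The difference of the CDK6 change between lines was 0.30 ± 0.41 in log2 units (edgeR adjusted p = 0.714) and turned to -0.06 ± 0.08 (edgeR adjusted p = 0.671, interval -0.22 to 0.11) without TOM-1 control replicate 3. CDK6 was lower in TOM-1 than in RS4;11 in control culture by edgeR, at -0.92 ± 0.29 (adjusted p = 0.0287) with all libraries and -0.57 ± 0.06 (adjusted p = 6.27e-08) without that library. The first of these calls was lost without RS4;11 control replicate 1 (-0.89, edgeR adjusted p = 0.0728) or 2 (-0.92, edgeR adjusted p = 0.0688). With ADI-PEG20 the line difference was -0.62 ± 0.29 (edgeR adjusted p = 0.101), called without TOM-1 control replicate 3 at -0.62 ± 0.05 (edgeR adjusted p = 1.01e-09).

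Per kilobase of exon, CDK6 was above CDK4 in 11 of 12 libraries. CDK6 made up 64.0% ± 0.1 (SD, n = 2) of the summed kinase level in TOM-1 control replicates 1 and 2, 30.5% in replicate 3 and 73.0% ± 0.9 (n = 3) with ADI-PEG20. In RS4;11 its share was 75.6% ± 1.8 in control and 77.7% ± 1.4 with the drug. The summed kinase level was 146 ± 2.15 CPM per kilobase in TOM-1 control replicates 1 and 2 and 144 ± 3.13 with the drug. With replicate 3 left out, the share thus moved while the sum stayed within the spread. Over all 3 TOM-1 controls the sum was 133 ± 22.5 CPM per kilobase and the CDK6 share 52.8% ± 19.3.

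CDKN2C, which encodes the INK4 inhibitor p18 that restrains B-cell proliferation, fell most among the members. CDKN2C (ENSG00000123080, chr1:50960745-50974633, plus strand) stood at 111, 123 and 175 CPM in TOM-1 control and at 49.9, 50.7 and 47.8 CPM with ADI-PEG20. RS4;11 had 197, 181 and 194 CPM in control and at 188, 193 and 186 CPM with the drug. The treated TOM-1 libraries lay below every other library, whereas the RS4;11 groups overlapped. The fall in TOM-1 was -1.46 ± 0.15 in log2 units (edgeR adjusted p = 4.62e-05), and -1.25 ± 0.07 (edgeR adjusted p = 3.99e-12) without TOM-1 control replicate 3. In RS4;11 the change was -0.01 ± 0.15, with an interval of -0.34 to 0.31. The spread behind that interval is estimated over all groups together, TOM-1 control replicate 3 included.

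The difference between the lines in the CDKN2C change was -1.45 ± 0.21 in log2 units (edgeR adjusted p = 0.00159), and -1.23 ± 0.09 (edgeR adjusted p = 1.43e-09) without TOM-1 control replicate 3. It was called in each of the 12 fits that left out 1 library. CDKN2C was lower in TOM-1 than in RS4;11 by edgeR in control culture, at -0.48 ± 0.15 (adjusted p = 0.0255), and with ADI-PEG20, at -1.94 ± 0.16 (adjusted p = 1.03e-06; -1.94 ± 0.06 without TOM-1 control replicate 3). The call between the control cultures was lost without TOM-1 control replicate 1 (-0.40, edgeR adjusted p = 0.0583) or 2 (-0.45, edgeR adjusted p = 0.0562) or without RS4;11 control replicate 1 (-0.46, edgeR adjusted p = 0.0859). Without TOM-1 control replicate 3 it was -0.71 ± 0.07 (edgeR adjusted p = 1.56e-08).

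CDKN2D, which encodes the INK4 inhibitor p19, moved the other way in TOM-1. CDKN2D (ENSG00000129355, chr19:10566462-10569059, minus strand) stood at 8.53, 10.1 and 19.3 CPM in TOM-1 control and at 24.2, 24.0 and 19.4 CPM with ADI-PEG20. RS4;11 had 25.6, 24.5 and 31.6 CPM in control and at 31.0, 27.1 and 27.9 CPM with the drug. TOM-1 control replicate 3 reached almost the lowest treated library, and the RS4;11 groups overlapped. The rise in TOM-1 was 0.84 ± 0.26 in log2 units (edgeR adjusted p = 0.0265), and 1.28 ± 0.15 (edgeR adjusted p = 3.77e-07) without that library. With it kept, the call was lost without TOM-1 control replicate 1 (0.59, edgeR adjusted p = 0.0908) or 2 (0.67, edgeR adjusted p = 0.0913) and without TOM-1 ADI-PEG20 replicate 1 (0.78, edgeR adjusted p = 0.0806) or 2 (0.76, edgeR adjusted p = 0.095). Fitted on the TOM-1 libraries only, the rise was 0.80 with an edgeR adjusted p of 0.145.

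The difference between the lines in the CDKN2D change was 0.77 ± 0.36 in log2 units (edgeR adjusted p = 0.196), and 1.20 ± 0.19 (edgeR adjusted p = 4.96e-05) without TOM-1 control replicate 3. In control culture CDKN2D was lower in TOM-1 by edgeR, at -1.12 ± 0.26 on the log2 scale (adjusted p = 0.00533) and -1.56 ± 0.15 (adjusted p = 1.44e-08) without that library. With ADI-PEG20 the difference between lines was -0.35 ± 0.25 (edgeR adjusted p = 0.292), and -0.35 ± 0.13 (edgeR adjusted p = 0.018) without TOM-1 control replicate 3.

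Per kilobase of exon, the INK4 level of TOM-1 was mostly CDKN2C in control culture and CDKN2C and CDKN2D in like parts with ADI-PEG20. CDKN2C made up 82.5% ± 1.9 (SD, n = 3) of the summed INK4 level in TOM-1 control and 49.2% ± 2.4 with ADI-PEG20, while CDKN2D made up 16.3% ± 2.9 and 49.2% ± 2.4. The sum was 50.1 ± 13.7 CPM per kilobase in control, 42.3 ± 3.5 without replicate 3, and 30.4 ± 2.32 with the drug. In RS4;11 the CDKN2C share was 76.1% ± 2.2 in control and 74.9% ± 1.5 with the drug, and the sum 75.6 ± 4.31 and 76.1 ± 1.28 CPM per kilobase, so neither moved beyond the spread between libraries.

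CDKN2A, which encodes the INK4 inhibitor p16 and, from another reading frame, the p53 activator ARF, was low in TOM-1 and without a read in RS4;11. CDKN2A (ENSG00000147889, chr9:21967753-21995301, minus strand) had 70, 72 and 0 counts in TOM-1 control and 34, 47 and 12 counts with ADI-PEG20. RS4;11 had 0 counts in all 6 libraries, where 3 counts, the limit that a count of 0 allows, would be 0.12 to 0.154 CPM. The library at 0 in TOM-1 was control replicate 3, so the TOM-1 groups overlapped. Against that limit CDKN2A was at least 12.1-fold higher in TOM-1 than in RS4;11 in control culture, at least 18.2-fold without replicate 3, and at least 8.88-fold higher with the drug. The change with the drug in TOM-1 was -0.38 ± 1.23 in log2 units (edgeR adjusted p = 0.874), -0.95 ± 0.71 (edgeR adjusted p = 0.329) without TOM-1 control replicate 3, and turned to 0.24 without TOM-1 control replicate 2. One identifier covers p16 and ARF, and the gene shares 7.9% of its exonic bases with CDKN2B-AS1 on the opposite strand.

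CDKN2B, the neighbouring gene for the INK4 inhibitor p15, had the same layout of reads. CDKN2B (ENSG00000147883, chr9:22002903-22009363, minus strand) had 31, 27 and 0 counts in TOM-1 control, 8, 26 and 32 counts with ADI-PEG20, and 0 in all 6 RS4;11 libraries. Again the TOM-1 library at 0 was control replicate 3. CDKN2B was at least 4.89-fold higher in TOM-1 than in RS4;11 in control culture, at least 7.33-fold without that library, and at least 6.19-fold higher with the drug. The change with the drug in TOM-1 was 0.40 ± 1.21 in log2 units (edgeR adjusted p = 0.861), and -0.16 ± 0.95 (edgeR adjusted p = 0.948) without TOM-1 control replicate 3. Of the INK4 level per kilobase in TOM-1 control, CDKN2A made up 0.868% and CDKN2B 0.375%.

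The genes beside CDKN2A and CDKN2B were also without reads in RS4;11. MTAP, the methylthioadenosine phosphorylase gene next to CDKN2A, had 392 to 1157 counts in the TOM-1 libraries, KLHL9 had 462 to 2077 and the antisense RNA CDKN2B-AS1 had 169 to 912. All 3 had 0 counts in the 6 RS4;11 libraries. Of the 12 neighbours listed along the short arm, MLLT3, FOCAD, HACD4, KLHL9, MTAP and CDKN2B-AS1 had reads in every TOM-1 library and 0 in RS4;11. DMRTA1, ELAVL2 and TUSC1 were at 0 in both lines, and CAAP1, PLAA and IFT74, farther out, had reads in all 12 libraries, with 718 to 968 counts of CAAP1 in RS4;11.

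Between the nearest genes on either side with any RS4;11 read, the table listed 66 genes, of which 37 had TOM-1 reads, 31034 counts in all. RS4;11 had 0 counts over those 66 genes and 6 libraries. The bounding genes, ENSG00000276667 and ENSG00000236921, had at most 3 and 2 counts in an RS4;11 library, so these bounds rest on few reads. Between the nearest genes with a mean of at least 10 RS4;11 counts lay 96 genes, of which 2 had RS4;11 reads, 5 counts in all. Genes with a mean of at least 100 counts in TOM-1 were rarely at 0 throughout RS4;11, 90 of 10687 or 0.842%, and the 6 such genes here were the longest unbroken run of them along any chromosome. The next longest runs, 2 in number, held 3 genes. This stretch was singled out after its values had been seen, DNA was not measured here, and what RNA at 0 means for the genes' copies was not tested.

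**Figure D3:**
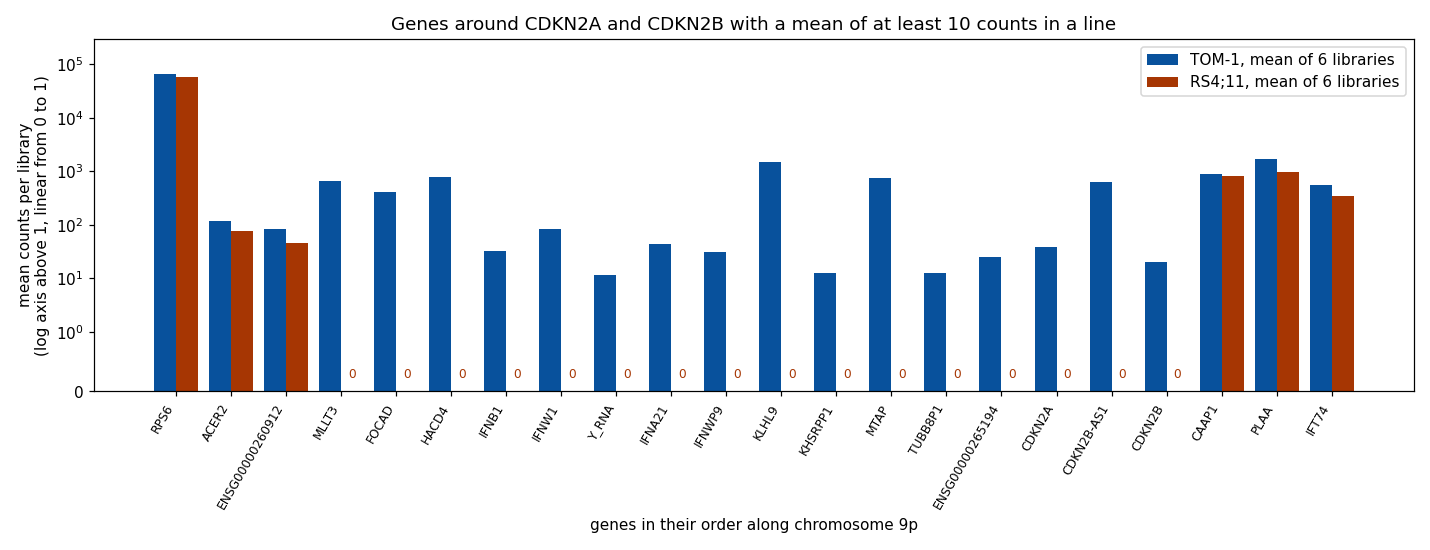
Mean counts per library of the genes around CDKN2A and CDKN2B with a mean of at least 10 counts in a line, in their order along the short arm of chromosome 9 (log axis above 1, linear from 0 to 1), for the 6 TOM-1 and the 6 RS4;11 libraries. RS4;11 is at 0 from MLLT3 to CDKN2B and has reads on both sides, while TOM-1 has reads throughout.

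CDKN1B, which encodes p27, rose in TOM-1. CDKN1B (ENSG00000111276, chr12:12715058-12722371, plus strand) stood at 126, 118 and 86.1 CPM in TOM-1 control and at 195, 201 and 187 CPM with ADI-PEG20. Levels in RS4;11 were 120, 130 and 118 CPM in control and at 139, 145 and 127 CPM with the drug. The treated TOM-1 libraries lay above every other library, and the RS4;11 groups overlapped. The rise in TOM-1 was 0.82 ± 0.14 in log2 units (edgeR adjusted p = 0.00107), and 0.67 ± 0.07 (edgeR adjusted p = 1.46e-07) without TOM-1 control replicate 3, the lowest library. In RS4;11 the change was 0.16 ± 0.14, with an interval of -0.14 to 0.47. The spread behind that interval is estimated over all groups together, TOM-1 control replicate 3 included. Without that library the CDKN1B change in RS4;11 had an unadjusted edgeR p under 0.05 and was not called after adjustment.

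The difference between the lines in the CDKN1B change was 0.65 ± 0.20 on the log2 scale, just short of a call at an edgeR adjusted p of 0.0506. It was called without TOM-1 control replicate 1 (0.73, edgeR adjusted p = 0.0308) and without TOM-1 control replicate 3 (0.50 ± 0.10, edgeR adjusted p = 0.000359). In control culture CDKN1B in TOM-1 minus RS4;11 was -0.15 ± 0.14 (edgeR adjusted p = 0.452), and -0.004 ± 0.073 (edgeR adjusted p = 0.972) without TOM-1 control replicate 3. With ADI-PEG20 CDKN1B was 0.50 ± 0.14 higher in TOM-1 (edgeR adjusted p = 0.0104), and 0.50 ± 0.06 (edgeR adjusted p = 6.44e-07) without that library. With all control libraries in, the call with ADI-PEG20 was lost without TOM-1 ADI-PEG20 replicate 1 (0.45, edgeR adjusted p = 0.0577) or 2 (0.43, edgeR adjusted p = 0.0622) or without RS4;11 ADI-PEG20 replicate 3 (0.38, edgeR adjusted p = 0.096).

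RB1, the target of the kinases, rose in TOM-1 as well. RB1 (ENSG00000139687, chr13:48303726-48599436, plus strand) stood at 239, 233 and 79.2 CPM in TOM-1 control and at 482, 490 and 444 CPM with ADI-PEG20. Levels in RS4;11 were 232, 226 and 197 CPM in control and at 250, 252 and 238 CPM with the drug. The low TOM-1 control was replicate 3, and treated libraries lay above controls in both lines without overlap. The rise in TOM-1 was 1.36 ± 0.30 in log2 units (edgeR adjusted p = 0.00519), and 1.00 ± 0.07 (edgeR adjusted p = 2.16e-10) without that library. Fitted on the TOM-1 libraries only, it was 1.34 with an edgeR adjusted p of 0.0581. In RS4;11 the change was 0.18 ± 0.30 (edgeR adjusted p = 1), and 0.18 ± 0.06 (edgeR adjusted p = 0.225) without TOM-1 control replicate 3.

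The difference between the lines in the RB1 change was 1.19 ± 0.42 in log2 units (edgeR adjusted p = 0.0896), and 0.82 ± 0.09 (edgeR adjusted p = 6.31e-07) without TOM-1 control replicate 3. In control culture the lines differed by -0.25 ± 0.30 (edgeR adjusted p = 0.571), or by 0.11 ± 0.07 (edgeR adjusted p = 0.206) without that library. With ADI-PEG20 RB1 was 0.94 ± 0.30 higher in TOM-1 (edgeR adjusted p = 0.0225). Leaving out any 1 of the 6 treated libraries ended that call, with edgeR adjusted p from 0.0511 to 0.0925 and values from 0.84 to 0.94, while leaving out TOM-1 control replicate 3 gave 0.93 ± 0.06 (edgeR adjusted p = 1.74e-11).

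**Figure D4:**
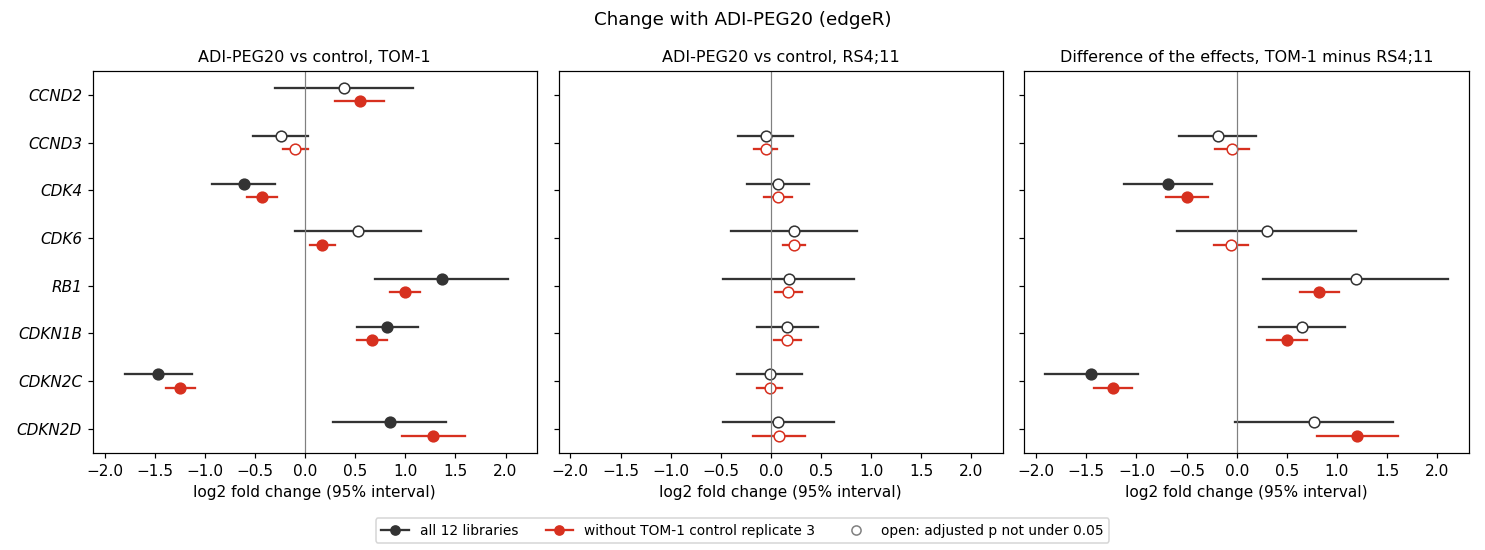
Log2 fold change with its 95% interval for the ADI-PEG20 response of either line and for how far these responses differ, with all 12 libraries (black) and without TOM-1 control replicate 3 (red), where open points have an edgeR adjusted p that is not under 0.05. CDKN2A and CDKN2B are left out for their low counts and CCND2 is shown for TOM-1 only; CDKN2C lies lowest in TOM-1, at -1.46, and near 0 in RS4;11.

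Of 27 other genes of the RB pathway, 26 were tested, and in TOM-1 edgeR called 5 higher and 7 lower with ADI-PEG20, 12 of 26 against 31.9% of all genes. Their median log2 change was 0.07, against 0.05 over all genes, and -0.07 against 0.002 without TOM-1 control replicate 3. Without TOM-1 control replicate 3 the counts were 8 higher and 8 lower, 16 of 26 against 41.6% of all genes. In RS4;11 0 of the 26 were called. CCND1, among the 26, had 12 counts in RS4;11 control and 7 with the drug and was testable through TOM-1 alone. It is kept in all counts of this list, those between the lines included. The change differed between the lines for 7 of the 26, 3 higher and 4 lower in TOM-1, against 11.9% of all genes, and for 14 of 26 against 30.4% without that library.

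CDKN1A, which encodes the p21 inhibitor of CDK2, rose most in this list, from a mean of 104 ± 20.6 CPM (SD, n = 3) in TOM-1 control to 345 ± 15.7 CPM with the drug, a log2 change of 1.74 ± 0.14 (SE, edgeR adjusted p = 7.16e-06), or 1.90 ± 0.07 without TOM-1 control replicate 3. In RS4;11 it stood at 133 ± 6.53 and 118 ± 2.52 CPM, and the difference between lines was 1.92 ± 0.19 (edgeR adjusted p = 0.000157). SKP2, the ubiquitin ligase subunit that marks p27 for breakdown, fell in TOM-1 from a mean of 107 to 33.6 CPM, a log2 change of -1.67 ± 0.22 (edgeR adjusted p = 0.000227), and differed between lines by -1.71 ± 0.31 (edgeR adjusted p = 0.00493). CCNE1, cyclin E1, which drives CDK2, fell from a mean of 31.96 to 11.7 CPM, a log2 change of -1.45 ± 0.17 (edgeR adjusted p = 9.02e-05), and differed between lines by -1.29 ± 0.23 (edgeR adjusted p = 0.00496). MNAT1, part of the kinase that activates CDKs, differed between lines in its change by 0.81 ± 0.23 (edgeR adjusted p = 0.0436). Without TOM-1 control replicate 3 the change in TOM-1 was -1.93 ± 0.09 for SKP2 and -1.28 ± 0.14 for CCNE1. The differences between lines in that fit were 2.09 ± 0.09 for CDKN1A, -1.97 ± 0.12 for SKP2, -1.12 ± 0.18 for CCNE1 and 0.97 ± 0.19 for MNAT1, each called by edgeR.

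Between the control cultures 11 of the 26 were called, 5 higher and 6 lower in TOM-1, where 34.7% of all genes were called. CCND1, testable through TOM-1 alone, is among the 26 here and in the comparison with ADI-PEG20. Leaving out TOM-1 control replicate 3 gave 18 of 26 against 52.8%. TFDP2, an E2F partner, was 1.76 ± 0.13 higher in log2 units (edgeR adjusted p = 6.55e-07) and MNAT1 was 1.05 ± 0.17 higher (edgeR adjusted p = 0.000369). CCNA2, cyclin A2, was lower by edgeR at -0.84 ± 0.16 (adjusted p = 0.00163) and E2F2 at -0.79 ± 0.10 (adjusted p = 4.32e-05). In the fit without that library these were 1.85 ± 0.09 for TFDP2, 0.89 ± 0.14 for MNAT1, -0.65 ± 0.07 for CCNA2 and -0.77 ± 0.06 for E2F2, each called by edgeR. With ADI-PEG20 13 of the 26 differed, 5 higher and 8 lower in TOM-1, a share near the 47.2% of all genes, and 19 of 26 against 62.9% without that library. MNAT1 and CDKN1A were highest, at 1.86 ± 0.17 (edgeR adjusted p = 2.88e-06) and 1.55 ± 0.14 (edgeR adjusted p = 2.08e-06), and SKP2 and the E2F partner TFDP1 lowest, at -1.99 ± 0.22 (edgeR adjusted p = 1.73e-05) and -1.42 ± 0.12 (edgeR adjusted p = 1.12e-06).

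Of 8 regulators known to act on the members, 5 rose and 1 fell in TOM-1, 6 of 8 where 31.9% of all genes were called and 15.9% in each direction, and 0 were called in RS4;11. The change differed between the lines for 3 of the 8, 2 higher and 1 lower in TOM-1, against 11.9% of all genes. Without TOM-1 control replicate 3 it differed for 5 of the 8, against 30.4%. FOXO1, a forkhead factor that activates CDKN1B, rose from a mean of 31.2 to 79.9 CPM, a log2 change of 1.35 ± 0.26 (edgeR adjusted p = 0.00228), and 1.06 ± 0.13 (edgeR adjusted p = 8.96e-07) without TOM-1 control replicate 3. In RS4;11 FOXO1 had a mean of 38.2 CPM in control and 45.8 CPM with the drug. With all libraries the change of FOXO1 was not called as different between the lines. The one that fell, named after its value was seen, was MYC, from a mean of 460 to 291 CPM, a log2 change of -0.66 ± 0.10 (edgeR adjusted p = 0.000452), or -0.61 ± 0.06 without TOM-1 control replicate 3. In RS4;11 MYC stood at 470 and 471 CPM, and the difference between lines was -0.66 ± 0.14 (edgeR adjusted p = 0.0101), or -0.62 ± 0.08 without that library.

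For each member the gene most like it was found among 9336 genes with a mean of at least 10 CPM, as the smallest root-mean-square difference of centred log2 CPM over the libraries. Over 12 libraries the nearest genes were CEACAM6 for CCND2 (0.658), TOR4A for CCND3 (0.117), DDOST for CDK4 (0.0722), SEC23IP for CDK6 (0.123), CYFIP2 for CDKN1B (0.0695) and NRIP1 for both CDKN2A (0.725) and CDKN2B (0.48). FDPS was nearest to CDKN2C (0.0899), KRT10-AS1 to CDKN2D (0.169) and BCOR to RB1 (0.0747). Without TOM-1 control replicate 3 the nearest gene was another one for each of the 10 members: SNHG14 for CCND2, ORAI2 for CCND3, OAS2 for CDK4, ANKRD46 for CDK6, ARID1B for CDKN1B, TCL1A for CDKN2A, MDM2 for CDKN2B, HMGN5 for CDKN2C, GPT2 for CDKN2D and SPAG9 for RB1. The libraries share 2 lines and 1 treatment.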

How the data were processed

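For 12 libraries the authors deposited raw counts, whole reads per Ensembl gene in 1 table, not normalized. Per the labels' protocols, total RNA was isolated on columns and selected by its poly(A) tail. STAR, SAMtools, featureCounts and hg38 are named per the submitters' processing notes; the annotation release, the versions and the use of strand are not given in the sources used here. Of 60664 genes 29301 were at 0 in every library. Symbols were found for 60463 identifiers, and positions, exon lengths and overlaps came from GENCODE 29 (58396 identifiers).

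Counts were filtered (filterByExpr, 17349 genes), scaled by TMM and fitted by edgeR 4.0.16 (R 4.3.3) as quasi-likelihood models of 4 group means over all 12 libraries, with Benjamini-Hochberg adjustment over all tested genes and a threshold of 0.05. Standard errors are the change divided by the root of F, and intervals are 95%. The procedure was tested on simulated data. Alternatives were DESeq2 1.42.0 (size factors or Wald test), no filter, a mean of at least 10 counts, a replicate block, the 6 libraries of a contrast and each library left out. Counting intervals and limits of 3 counts per library cover counting error only. Every pair of replicates differed beyond sampling noise (lowest chi-square over its degrees of freedom 4.96), so none was counted as a duplicate.

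All members are named. From the lists of other pathway genes and regulators, the 2 largest called changes in each direction with a mean of at least 5 CPM are named. The members and lists were chosen with earlier results of these data known, so their direction is not independent evidence. One further marker of the B-lymphoblast list is not reported here.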

Additional observations from a re-analysis of the deposited data

Results flagged for a closer look

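The change with ADI-PEG20 differed between TOM-1 and RS4;11 for CDK4 by -0.68 on the log2 scale and for CDKN2C by -1.45, both by the interaction test. For CDK4 the call was near the threshold (edgeR adjusted p = 0.0474) and was lost in 10 of 17 alternative fits. For CDKN2C it was kept in all 17. CDK4 fell in TOM-1, by 0.61 on the log2 scale, and stood at 0.07 in RS4;11. CDKN2C fell in TOM-1, by 1.46, and stood at -0.01 in RS4;11.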

How the results depend on the processing

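Of 782 alternative values of 44 log2 changes of the members, 700 kept their direction and side of the threshold, 54 lost a call, 19 gained one and 9 changed sign, none of them called. Among the 44 are the comparisons between lines of CCND2, CDKN2A and CDKN2B, testable through TOM-1 alone. The changes in RS4;11, which no setting called, are counted too, so the 700 are no measure of how firm the calls are. The members called in TOM-1 with ADI-PEG20 went from 5 to 2 in the fit on its 6 libraries and from 4 to 7 with 1 library left out; those whose change differed between lines went from 2 to 4 by DESeq2's Wald test and from 1 to 5 with 1 library left out; those called between control cultures, CCND2, CDKN2A and CDKN2B included although testable through TOM-1 alone, went from 8 to 2 in the fit on 6 libraries and from 4 to 8 with 1 library left out. In RS4;11 0 members were called throughout. Sign changed for CDKN2A in TOM-1 with the replicate block (0.365) and, over the fits with 1 library left out, for CDKN2A in TOM-1 (-0.95 to 0.24, the highest without TOM-1 control replicate 2). Without TOM-1 control replicate 3 it changed for CDKN2B in TOM-1 (-0.16, range -0.16 to 0.87), CDK6 in the difference (-0.06, range -0.06 to 0.48) and RB1 between control cultures (0.11, range -0.52 to 0.11). In RS4;11 it changed for CCND3 (range -0.085 to 0.000708, the highest without ADI-PEG20 replicate 3) and CDKN2C (range -0.0473 to 0.0227, the highest without control replicate 1, with 0.000216 without control replicate 3, 0.000125 without ADI-PEG20 replicate 3). The cause was not tested. Genes called in TOM-1 went from 5527 to 2639 in the fit on 6 libraries, and in RS4;11 from 0 to 3 there and to 58 without TOM-1 control replicate 3. Genes called in the difference went from 2072 to 3228 by DESeq2, to 5567 without that library and to between 1169 and 1375 without a treated or RS4;11 library. Between control cultures they went from 6014 to 3548 on 6 libraries and to 9681 without it. Same-numbered libraries did not vary together in every pair (correlations -0.057 to 0.213), and the numbers were not used as a pairing in the main fit. With so few replicates these correlations cannot exclude a pairing. With a replicate block in edgeR, the calls of CDK4 in the difference (adjusted p = 0.069) and of CDK4 between control cultures (adjusted p = 0.0561) were lost. That of CDKN1B in the difference (edgeR adjusted p = 0.0382) was gained. Depth limits CDKN2A and CDKN2B, with at most 72 counts in a library.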
